A study of Mus musculus with 13 samples.

Results

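The astrocytes of the hippocampus were examined as nuclei chosen by marker genes. A barcode was a member if it held at least 500 detected genes and at most 5% mitochondrial UMIs (unique molecular identifiers, the unit in which transcripts were counted), at least 3 of Slc1a3, Gja1, Aqp4, Acsbg1, Prdm16 and Ntsr2 were detected in it, and these 6 genes summed to at least 15 per 10000 of its UMIs. The rule took 6739 of 105427 retained nuclei (6.39%). Since the 6 genes chose the members, their levels are given as a description and carry no test.

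Astrocytes are the star-shaped glia that fill the space between neurons and end on blood vessels. They clear glutamate with the transporters encoded by Slc1a2 and Slc1a3, buffer potassium, move water through Aqp4, form a coupled network through gap junctions such as Gja1, store glycogen, and make and release cholesterol that neurons use. With age or injury they can turn on a set of genes called reactive, among them Gfap, an intermediate filament, and C4b, a complement component.

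Single nuclei were prepared from whole frozen hippocampus of female C3HB6F1 mice (C3B6F1 in the series' design text) and profiled with 10x Genomics droplets. The 13 samples made up 4 groups. Mice with free access to food were sampled at 5 months (young ad libitum, 3 samples) and at 24 months (old ad libitum, 3 samples). Mice of both restricted groups were also sampled at 24 months, and their food had been limited since 20 months (acute restriction, 3 samples) or since 5 months (long-term restriction, 4 samples). The labels number the samples but do not state that each came from its own animal. The p-values therefore set group differences against the spread between these samples. The old ad libitum samples carry the numbers 1, 2 and 4.

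Retained UMIs per sample ranged from 38535943 to 80529968. The members contributed between 257240 UMIs (old ad libitum sample 4, 73 nuclei) and 4879089 UMIs (long-term sample 4, 1380 nuclei). Any pair of samples shared at most 40 cell barcodes. The 4 libraries numbered 1 stood apart in the members: mitochondrial UMIs made up between 0.0172% and 0.0815% of their member UMIs, against 0.00445% to 0.0119% in the other 9, with no overlap. Levels in CPM are UMIs summed over members, where 100 CPM is 1 in 10000 of the sample's total after TMM normalisation. They therefore differ somewhat from levels given per 10000 UMIs. Apoe, the abundant lipid carrier, stood at 5168, 2857, 3738 and 2710 CPM in the young, old, acute and long-term libraries numbered 1. It ranged from 1238 to 3368 CPM elsewhere. Counts of called genes within astrocytes, the named genes and 6 of the gene lists were therefore also computed with a term for number 1 and over the other 9 libraries. The differences between cell types were not.

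The members carried the astrocyte programme beyond the genes of the rule. All 30 other astrocyte markers were higher per UMI in members than in the remaining nuclei, in each of the 13 samples, with ratios from 2.49 (Fgfr2) to 90.5 (Itih3). Their summed level was 333 per 10000 UMIs in members and 16.2 in the rest. Slc1a2 had a UMI in 99.8% of members and Gfap in 25.1%. Outside the marker lists, Gli3 and Gli2, transcription factors of hedgehog signalling, Grin2c, an NMDA receptor subunit, and Gldc, of glycine breakdown, were at 6.56, 2.19, 2.39 and 3.55 per 10000 UMIs, against 0.0625, 0.0417, 0.0207 and 0.0439 in the rest. Since the same nuclei were used to choose the members, these contrasts describe them and are not tests.

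Other cell types left small traces. Pan-neuronal markers summed to 18.6 per 10000 UMIs in members and 130 in the rest, granule neuron markers to 5.08 and 18.6, and oligodendrocyte markers to 3.26 and 7.22. Microglia markers summed to 0.914, endothelial markers to 0.312 and ependymal and choroid plexus markers to 0.137 per 10000. Mural and fibroblast markers, at 1.35, were above their level in the rest (0.421). Of the neural stem cell and radial glia list, Mki67 had 13 UMIs and Top2a 2 UMIs over all members, and Eomes had none. Sox2, a gene of astrocytes as well as of stem cells, and Sox1 had no UMI in any retained nucleus. Each lies within other annotated transcripts on its own strand (Sox2ot, 4594 UMIs in members, over Sox2), so their 0 is no measure of expression.

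The edge of the rule was not a gap. The 63 nuclei between 15 and 16 per 10000 held 140 per 10000 UMIs of other astrocyte markers and 72.4 of neuronal markers, and the 63 nuclei between 14 and 15 that had 3 markers held 134 and 77.4. The 5477 members at 30 or above held 360 and 12.5. Another 2685 nuclei reached 15 per 10000 with fewer than 3 of the genes detected, at a median of 1729 UMIs against 2867 in members. Doublet scores marked 344 members (5.1%) and 232 carried markers of another type, most often of oligodendrocytes (111) or granule neurons (67).

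The astrocyte share of nuclei varied more within groups than between them. In old ad libitum samples 1, 2 and 4 it was 22.4%, 2.92% and 1.1% (exact 95% intervals 20.99 to 23.8, 2.6 to 3.27 and 0.864 to 1.38, which cover counting error only). In young samples 1, 2 and 3 it was 5.39%, 3.78% and 7.13%. Acute samples 1 to 3 had 5.75%, 4.44% and 5.44%, and long-term samples 1 to 4 had 7.36%, 5.5%, 2.67% and 17.5%. The old ad libitum mean of 8.79% ± 11.8 (SD, n = 3) spanned every young and acute sample. In an exact permutation test over all 1201200 assignments of the 13 samples, the log2 odds gave p = 0.937. The 4 contrasts between groups each gave an adjusted p of 0.9 in exact two-sided permutation tests. With 3 samples against 3 such a test cannot go below 0.1. The mean share and the mean log2 odds differed in sign for old against young (log2 odds difference -0.27), acute against old (0.25) and long-term against old (0.65).

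**Figure D1:**
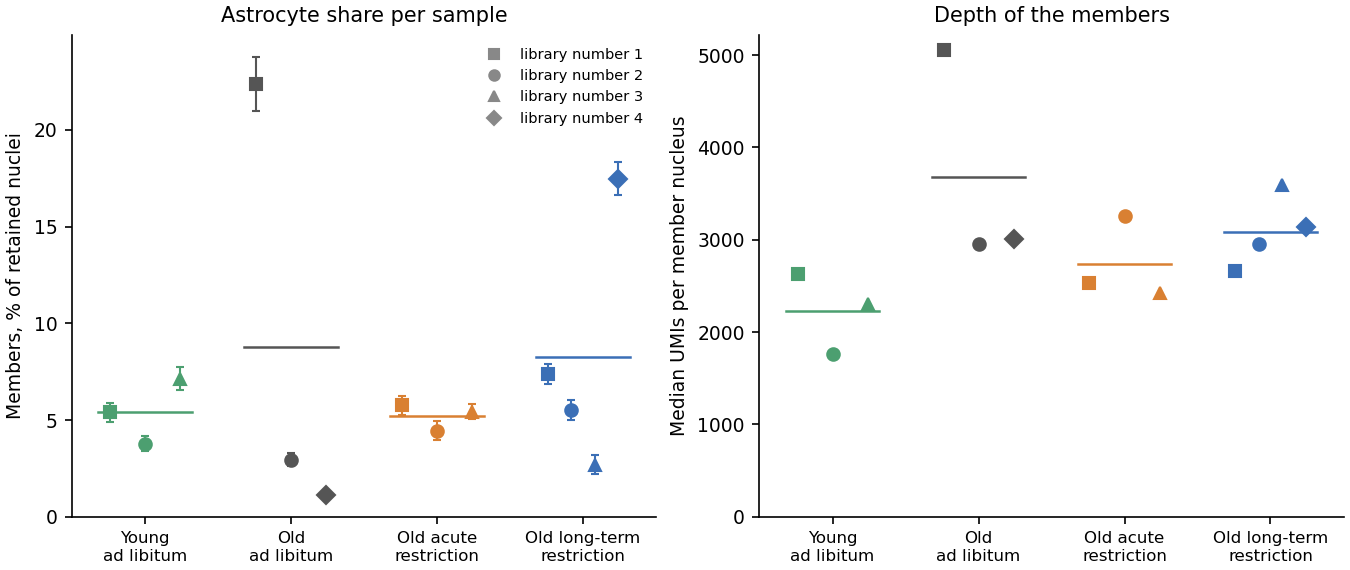
The left panel plots members as a percentage of retained nuclei in each sample (bars, exact 95% intervals), and the right panel the median UMIs per member nucleus; lines are group means and marker shapes are the sample numbers. Old ad libitum samples ran from 1.1% to 22.4%, and their median depths (2958 to 5056 UMIs) were above those of the young samples (1766 to 2631 UMIs).

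Without doublets and mixed barcodes, 6324 members fell into 7 clusters, which are described here and given no new names. The largest (3932 nuclei, in all 13 samples) had Slc1a2 at 91.8 per 10000 UMIs and was led by Il33, a cytokine, Folh1 and Sgcd. The second (988 nuclei) had the axon guidance receptor Dcc at 10.6 per 10000 against 1.79 in the other clusters, with Pde10a and Lama3. The third (652 nuclei) held more Gfap (4.2 against 1.05), Aqp4 (7.8 against 2.16), Tnc (4.87 against 0.886), Myoc (0.935 against 0.0142) and Nrp2 (3.33 against 0.18). The fifth (124 nuclei) was led by Adgrv1 (8.84 against 0.0992) and Siah3, and the sixth (65 nuclei) by Gria4 and Erbb4. Erbb4 was also among the leading genes of the largest cluster (4.62 against 2.2), and Efna5 of the second (0.987 against 0.233). In the smallest (28 nuclei) Slc6a20a, Ptgds, Colec12 and Vtn led, and mural and fibroblast markers reached 20.0 per 10000 UMIs; it held 0.443% of the clustered nuclei.

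The fourth cluster came mostly from 2 samples. Of its 535 nuclei, 494 (92.3%) came from young samples 2 and 3, where it made up 79.3% and 40.0% of the clustered members; in each of the other 11 samples it made up at most 2.94%. It was shallow (median 1833 UMIs) and led by Wdr17, Tsix, an antisense transcript of the X inactivation centre, and AY036118, while its other astrocyte markers (350 per 10000 UMIs) were near those of the largest cluster (371). The largest cluster made up 5.04% and 24.7% of the clustered members in young samples 2 and 3. Elsewhere its share ran from 59.6% (acute sample 3) to 75.7% (young sample 1). Whether cluster shares bear on the genes called below was not tested. Without young sample 2 the ageing comparison below gave 9 calls, and without young sample 3 it gave 16, against 20 with both.

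**Figure D2:**
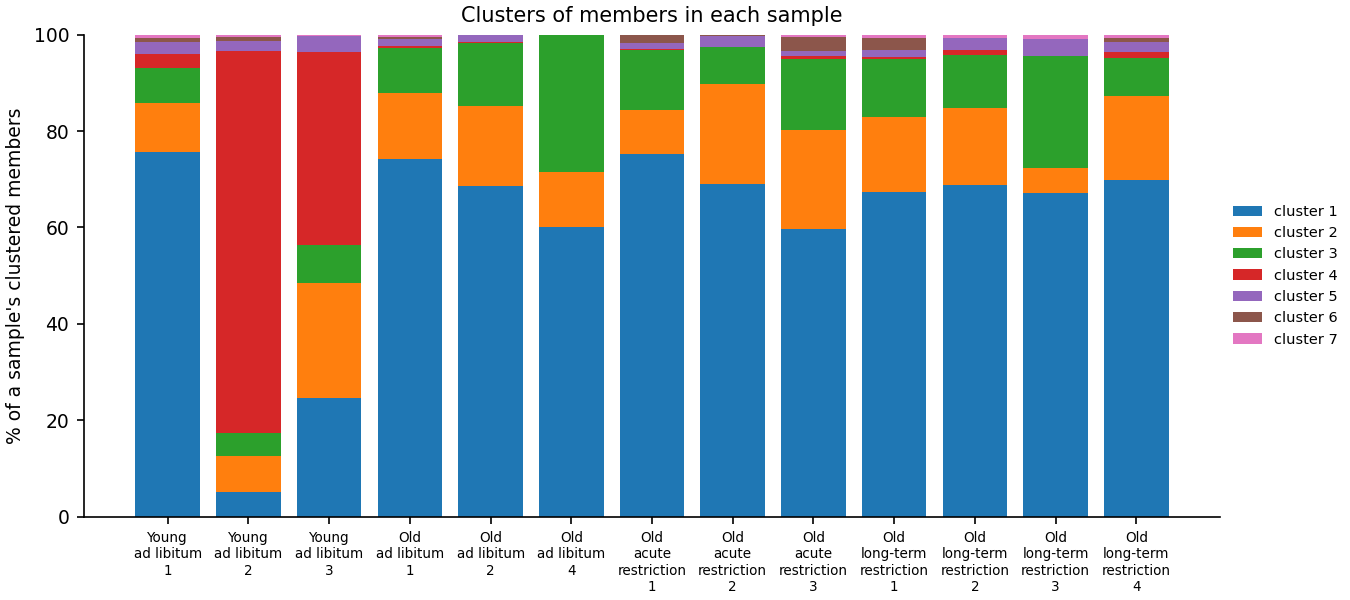
Bars show the percentage of each sample's clustered members in clusters 1 to 7, numbered by size from 3932 down to 28 nuclei. Cluster 4 fills 79.3% and 40.0% of young samples 2 and 3 and at most 2.94% of any other sample.

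To ask how astrocytes differed with age under free feeding, UMIs of members were summed per sample and old were compared with young by edgeR's quasi-likelihood test, with p-values adjusted (Benjamini-Hochberg) over 11707 genes. The test called 20 genes (0.171%), 17 higher and 3 lower in old samples. C4b rose most among the protein-coding genes called. The long non-coding RNA C130073E24Rik, named after its values were seen, rose more. A fibroblast growth factor homologue (Fgf12), receptor-linked genes (Il1rapl1, Erbb4, Gabrg3), an ephrin (Efna5) and a nuclear receptor (Esrrg) were among the others that rose.

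C4b, which encodes complement component 4 (chr17:34728380-34743882, mm10, minus strand), stood at 41.8, 49.0 and 40.3 CPM in young samples 1 to 3. In old ad libitum samples 1, 2 and 4 it stood at 97.5, 176 and 229 CPM, all above every young sample. The log2 fold change was 1.85 ± 0.25 (SE, adjusted p = 0.00368). Old sample 1, with the most member UMIs of the old group, was the lowest of it. The near-identical paralog C4a had at most 4 UMIs in any sample against 33 to 565 for C4b; how reads that match both were counted is not given in the sources used here. The call held in 26 of 27 alternative settings (adjusted p 8.65e-08 to 0.121). It was lost in the edgeR fit with only the young and old ad libitum samples, where C130073E24Rik alone was called.

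C130073E24Rik (chr8:50743291-50916997, minus strand) was at 9.91, 14.8 and 17.1 CPM in young and at 84.8, 90.9 and 53.5 CPM in old ad libitum samples. The groups did not overlap, and the log2 fold change of 2.54 ± 0.26 (adjusted p = 0.000198 by edgeR) passed in all 27 alternatives. Of these alternatives, 7 left out a restricted sample, which is in neither group compared here. Plce1, a phospholipase C (chr19:38481109-38785030, plus strand), was at 104, 128 and 113 CPM in young and 213, 269 and 306 CPM in old samples. Its log2 fold change was 1.17 ± 0.16 (adjusted p = 0.00368, passing in 25 of 27 alternatives). Both genes were also above every young sample in all 7 restricted samples.

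The other protein-coding genes that rose had log2 fold changes from 0.79 (Erbb4, a neuregulin receptor, and Il1rapl1, a synaptic adhesion receptor) to 1.43 (Cped1). Esrrg rose by 1.11 ± 0.17, Efna5 by 1.29 ± 0.23, Asic2, an acid-sensing channel, by 0.96 ± 0.16, and Fgf12 by 0.84 ± 0.13. Brinp3, Enox1, Gabrg3 (a GABA-A receptor subunit), Lrmda, Adam23 and Synpo2 completed the set, together with the non-coding Kcnq1ot1 (0.96 ± 0.17), which lies antisense to Kcnq1. C1qtnf4, a secreted C1q-related protein, fell from 82.1, 87.5 and 61.5 to 23.6, 32.7 and 26.8 CPM (log2 fold change -1.50 ± 0.23, adjusted p = 0.00748). Cep78, a centrosomal protein, and Birc2, an inhibitor of apoptosis, fell by 1.06 ± 0.20 and 0.83 ± 0.16 on the log2 scale.

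**Figure D3:**
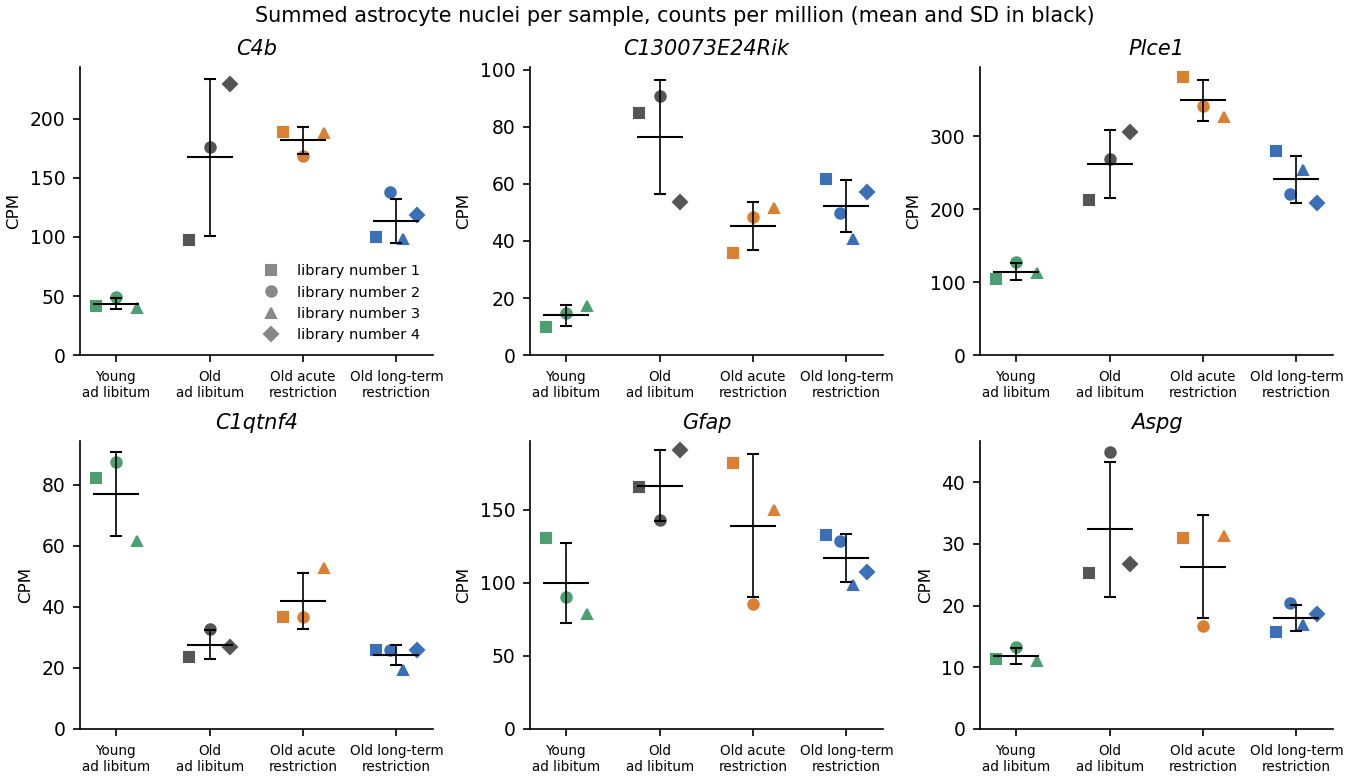
Points are CPM in each of the 13 samples (shape, sample number), with group mean and SD in black, for 6 genes. C4b, C130073E24Rik and Plce1 were higher and C1qtnf4 lower in all old than in all young ad libitum samples; Gfap and Aspg show the same separation without passing the test.

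The genes that rose were long. Their median span was 408 kb, against 30.5 kb over all tested genes and 18.8 kb for the 3 that fell, and over 11700 genes log2 fold change and span had a Spearman correlation of 0.454, across genes that are no independent replicates. Nuclear reads cover introns, and old members were deeper than young ones. With the trend on length removed, 2 genes were called, C4b and C130073E24Rik. The other 18 kept their sign at adjusted p from 0.0642 to 0.666 (edgeR). Cep78 (-1.02), Birc2 (-0.73) and Kcnq1ot1 (0.81) stayed nearest their folds, Cped1 (1.17) and Plce1 (0.86) moved more, and Fgf12 shrank to 0.43, Erbb4 to 0.30 and Il1rapl1 to 0.25. With the median UMIs of members as a covariate, 7 were called, 3 of them among the 20. Leaving out 1 sample gave 9 calls without old sample 4, 9 without young sample 2, 10 without old sample 2, 39 without old sample 1 and 160 without young sample 1.

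With the term for number 1, all 20 genes were again called among 166 (57 higher, 109 lower, or 0.487% and 0.931% of genes), and over the 9 libraries numbered 2 to 4 among 464 (174 higher, 290 lower). Most calls were lower in these 2 settings and without young sample 1 (32 higher, 128 lower). Most were higher in the fit over all samples. The 9 libraries set old samples 2 and 4 against young samples 2 and 3. Without young sample 1 the young group was also samples 2 and 3, the source of most cluster 4 nuclei. With median UMIs as a covariate all 7 calls were higher, and with that and the number 1 term all 11 were.

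Among reactive genes, 16 of 42 were measured well enough to test, with a median log2 fold change of 0.57 against -0.03 over all genes. C4b was called, and 6 of the 16 were higher at an unadjusted p below 0.05, none lower; over all genes 6.42% were higher and 6.61% lower by that measure. The median was 0.19 without old sample 1 and 0.99 without young sample 1. Gfap was at 131, 90.5 and 78.6 CPM in young and 165, 143 and 191 CPM in old ad libitum samples, with no overlap (log2 fold change 0.70 ± 0.25, adjusted p = 0.274). Aspg had 11.3, 13.4 and 10.9 against 25.3, 45.0 and 26.8 CPM (1.47 ± 0.32, adjusted p = 0.0951), and Osmr, the oncostatin M receptor, 9.2, 8.9 and 12.3 against 25.5, 41.9 and 11.5 CPM (1.48 ± 0.32, adjusted p = 0.0951). Over all alternatives Gfap had adjusted p from 0.0174 to 0.666 and passed in 1, Aspg passed in 6 (0.0069 to 0.35) and Osmr in 4 (0.0114 to 0.534), of 27 each. With the number 1 term, Aspg and Osmr passed as well (0.0195 and 0.0191).

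Lists of calcium and G protein receptor signalling (35 tested) and of synapse contact and matrix (39 tested) each had a median of 0.24, with 13 and 11 genes higher and 1 each lower at an unadjusted p below 0.05. Without young sample 2 each had 7 higher, and without old sample 2 the calcium list had 8. Erbb4 was the called member of the second list. Camk2g (0.64 ± 0.14), a calcium-dependent kinase subunit, Itpr1 (0.72 ± 0.22), a calcium release channel, Adora1 (0.68 ± 0.22), an adenosine receptor, and Cadm1 (0.58 ± 0.12), an adhesion molecule, did not pass; they were named after their values were seen. The receptor gene P2ry14 lay the other way (-1.53 ± 0.41). With the number 1 term Camk2g (adjusted p = 0.0241), Cadm1 (0.0129) and P2ry14 (0.00937) passed. After removal of the length trend the calcium list's median was -0.01, with 3 higher and 2 lower. Medians without the length trend are not given here for the other lists of this paragraph. Growth factor and morphogen genes (42 tested), with Fgf12 called, had a median of 0.24 (0.12 without old sample 1), glutamate and GABA handling genes (19 tested) of 0.18, and potassium, water and junction genes (20 tested) of -0.02 (0.12 without young sample 1, 0.03 without old samples 2 or 4, -0.13 without old sample 1). From young to old, Slc1a2 (7665 ± 306 to 8802 ± 1627 CPM, SD, n = 3 each) and Grm3, a glutamate receptor (1619 ± 217 to 1953 ± 403 CPM) had overlapping groups.

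No chaperone was called (14 tested, median -0.42, 13 negative, 4 lower and none higher at an unadjusted p below 0.05). The median was -0.07 without young sample 1, with 7 of 14 negative, -0.19 without old sample 2 and -0.85 without old sample 1. The count of 4 lower was 1 without young sample 1 or old sample 2, 7 without young sample 3 and 8 without old sample 1. With the length trend removed it was -0.26, with 8 negative. Hspe1 had 48.8, 49.0 and 23.9 CPM in young and 22.3, 9.2 and 11.5 CPM in old samples (-1.25 ± 0.34, adjusted p = 0.169), and Hspa8 had 283, 128 and 114 against 119, 41.9 and 61.1 CPM, which overlapped. In both genes the library numbered 1 was the highest of the old group. With the number 1 term Hspa8, Hspa5, Hsp90ab1 and Hspe1 passed (adjusted p 0.00244 to 0.0222). With median UMIs as a covariate no chaperone was called (median -1.16), and with both terms no gene at all was called lower. Granule neuron markers within the members had a median of -0.68 (8 tested, 3 lower and none higher at an unadjusted p below 0.05), and oligodendrocyte markers of -0.39. The first was -1.15 without young sample 3 and -1.04 without old sample 4, and none was lower without young sample 1 or old sample 1; the second was -0.65 without young sample 1, -0.12 without young sample 3 and -0.11 without old sample 1. With barcodes that carried markers of another type removed, the chaperone median was -0.38, with 4 lower. Over samples, the summed granule marker level was 4.97 to 6.16 per 10000 in young and 3.71 to 6.3 in old.

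Neural stem cell and radial glia genes (10 tested) had a median of -0.21, with 3 lower at an unadjusted p below 0.05, Fabp7, Thrsp and Sox11. Sterol genes had a median of -0.21, interferon and antigen presentation genes (11 tested) 0.10, clock genes 0.17, fatty acid oxidation genes -0.04, glucose and glycogen genes -0.09, iron and metal genes -0.11 and glucocorticoid response genes -0.13. In none of these 8 lists was a gene called with age in the fit over all samples; with the number 1 term the ferritin gene Fth1, named after its values were seen, passed (-0.93, adjusted p = 0.00485). As samples were left out, the medians ran from -0.26 to 0.05 (sterol), -0.40 to 0.002 (stem cell), -0.30 to 0.07 (glucocorticoid), -0.68 to 0.06 (iron), -0.23 to 0.24 (glucose), -0.08 to 0.03 (fatty acid), 0.10 to 0.52 (interferon) and 0.07 to 0.20 (clock). The highest value came without young sample 1, except for fatty acid (old sample 2) and clock genes (young sample 3). The lowest came without old sample 1 for the first 4 of these lists and without young sample 2 (glucose, clock), young sample 3 (fatty acid) or long-term sample 1 (interferon). Fatty acid genes also turned positive without young sample 1, and iron and glucocorticoid genes without old sample 2. The stem cell count of 3 lower was 1 without old sample 1. With the length trend removed the sterol median was 0.03, and with median UMIs as a covariate it was -0.45. Among the rule's own markers, Slc1a3 was at 2333, 1982 and 2186 CPM in young and 2812, 2886 and 2698 CPM in old samples. Prdm16 was at 323, 448 and 467 CPM in young and 507, 607 and 417 CPM in old samples, which overlapped. The 6 rule markers had a median log2 fold change of -0.06 with age, and 4 of them were negative.

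Whether the ageing difference was larger in astrocytes than in other cells was tested in a model with a term per sample. Fold changes within a cell type come from separate fits, so they do not subtract exactly to the difference of this model. Against granule neurons chosen by the same kind of rule (24183 nuclei), 12 of 16036 genes (0.0748%) differed, 10 with the higher fold change in astrocytes. C130073E24Rik had a log2 fold change of 2.54 in astrocytes and -0.11 in granule neurons (difference 2.86 ± 0.30, adjusted p = 1.03e-05). In precursors it had 0.94 (adjusted p = 0.042), and that difference did not pass (1.60 ± 0.32, adjusted p = 0.152). Il1rapl1 had 0.79 in astrocytes and 0.23 in granule neurons (0.65 ± 0.12, adjusted p = 0.0208). Camk2d, a calcium-dependent kinase subunit, was the reverse, with 0.15 in astrocytes and 1.57 in granule neurons (-1.30 ± 0.15, adjusted p = 1.03e-05). The count was 20 without young sample 1, 19 without long-term sample 1, and 3 to 7 without young samples 2 or 3, old sample 2, acute sample 3 or long-term samples 2, 3 or 4. Against oligodendrocyte precursors (3111 nuclei), 1 of 12087 genes (0.00827%) differed, Etl4, with 1.06 in astrocytes and -0.82 in precursors (1.84 ± 0.29, adjusted p = 0.0269). It was chosen after its values were seen, and the count ran from 0 (without old samples 2 or 4, young sample 3, or long-term samples 2, 3 or 4) to 5 (without young sample 1). C4b had a log2 fold change of 1.85 in astrocytes, 3.33 in granule neurons (adjusted p = 0.0358) and 2.14 in precursors (adjusted p = 0.103). Its difference did not pass against granule neurons (-1.29 ± 0.91, adjusted p = 0.929) or precursors (-0.22 ± 0.55, adjusted p = 1). Of the genes called with age in astrocytes, only C130073E24Rik and Il1rapl1 differed from granule neurons. Fgf12 (0.46), Esrrg (0.69), Enox1 (0.47), Kcnq1ot1 (0.59), Efna5 (0.84) and Cep78 (-0.49) also passed within granule neurons, in the same direction (adjusted p 0.0301 to 0.0481 by edgeR). Lrmda did so within precursors (0.75, adjusted p = 0.0171 by edgeR).

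Restriction begun late was compared with free feeding at the same age. In the acute samples 1 of 11707 genes (0.00854%) was called. Fabp7, a fatty acid binding protein of radial glia and astrocytes (chr10:57784881-57788450, plus strand), was at 30.01, 37.8 and 30.6 CPM in old ad libitum and at 11.95, 8.32 and 8.86 CPM in acute samples. It fell by 1.75 ± 0.26 on the log2 scale (adjusted p = 0.0321 by edgeR). Its counts were low, at 8 to 121 UMIs per sample. All acute samples were below all ad libitum samples, and young samples stood higher still at 57.3, 63.8 and 47.9 CPM. The call passed in 12 of 27 alternatives (adjusted p 0.00305 to 0.34); it was lost when any 1 acute or old ad libitum sample, young sample 2 or long-term samples 2 or 4 were left out. Over all genes, 699 had an unadjusted p below 0.05. With the term for number 1, 11 genes were called, over the 9 other libraries 32, and by DESeq2 14.

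No sterol gene was called in either restricted group, while the fold changes of the synthesis enzymes were all negative in both. The sterol, clock and glucocorticoid genes named from here on were chosen after their values were seen. Of 32 listed, 31 were tested; the median log2 fold change under acute restriction was -0.70 against 0.003 over all genes, with 14 lower and none higher at an unadjusted p below 0.05 (3.31% of all genes were lower and 2.66% higher by that measure). The pathway turns acetyl-CoA into cholesterol in the endoplasmic reticulum, and when sterols are scarce the SREBP factors switch on its enzymes. All 20 synthesis enzymes had a negative fold change, 11 of them at an unadjusted p below 0.05, with a median of -0.78. Of the 5 tested genes of uptake, sensing and transport, all 5 had a negative fold change and 3 were lower at an unadjusted p below 0.05. Those of export and carriers (6, among them Apoe, Clu and Abca1) had a median of -0.13, with none at an unadjusted p below 0.05.

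Insig1, the sterol sensor that holds SREBP back (chr5:28071363-28078662, plus strand), was at 44.2, 23.5 and 26.8 CPM in old ad libitum and 12.7, 7.49 and 13.5 CPM in acute samples. The groups did not overlap (log2 fold change -1.57 ± 0.30, adjusted p = 0.115 by edgeR). Insig1 had 7 to 178 UMIs per sample. Msmo1, a sterol demethylase, was at 140, 92.0 and 122 against 74.5, 55.7 and 62.5 CPM (-0.89 ± 0.17, adjusted p = 0.122), and Fdft1, squalene synthase, at 69.0, 70.5 and 68.8 against 44.3, 18.3 and 33.9 CPM (-1.09 ± 0.23, adjusted p = 0.176). Hmgcs1, an early enzyme of the pathway, was at 62.0, 41.9 and 84.1 against 32.3, 25.8 and 30.2 CPM (-0.996 ± 0.27, adjusted p = 0.373).

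With the term for number 1, Msmo1 (adjusted p = 0.0201) and Insig1 (0.0225) were among the genes called. Over 27 alternatives Insig1 (adjusted p 0.00829 to 0.923), Msmo1 (0.0156 to 0.732) and Fdft1 (0.0156 to 0.595) passed in 3 each. The list's median stayed between -1.02 and -0.52 as each sample was left out, and was -0.53 with median depth as a covariate. Of its genes, 6 were lower at an unadjusted p below 0.05 without old sample 1 and 9 without acute sample 3. Beside these values, oligodendrocyte markers within the members had a median log2 fold change of 0.86 (9 tested, 2 higher and none lower at an unadjusted p below 0.05, none called). As samples were left out it ran from 0.52 without acute sample 2 (1 higher) to 1.25 without acute sample 1 (6 higher), with 5 higher without old sample 2. The groups overlapped: their summed level was 2.58, 7.39 and 4.07 per 10000 UMIs in acute samples 1 to 3 and 3.6, 2.87 and 1.79 in old samples 1, 2 and 4. Granule neuron markers had a median of 0.46 (8 tested, 1 higher and none lower at an unadjusted p below 0.05), from 0.24 without acute sample 3 to 0.71 without acute sample 1 (4 of 10 higher). Their summed level was 4.03, 7.49 and 7.17 per 10000 in acute samples and 3.71, 5.12 and 6.3 in old ones, which overlapped. With barcodes that carried markers of another type removed, the sterol median was -0.73, with 15 of 30 lower.

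**Figure D4:**
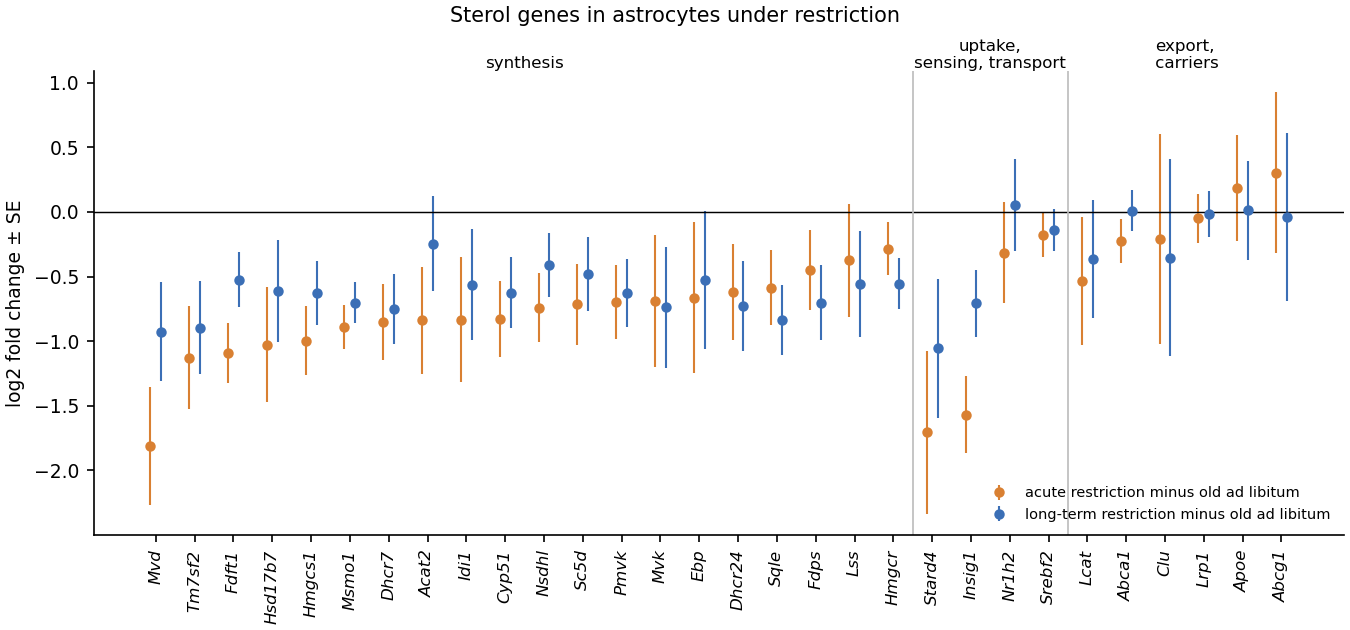
Points are log2 fold changes with SE of 30 of the 31 tested sterol genes against old ad libitum samples, for acute and long-term restriction, grouped by role. All 20 synthesis genes lie below 0 in both comparisons, while export and carrier genes lie around it; both comparisons share the ad libitum samples.

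Promoters of a few of these genes were inspected because SREBP binds a sterol element and clock factors bind an E-box. The sterol element was searched as TCACNCCAC, and the E-box as CACGTG, on both strands, in the 250 bases before each RefSeq start (GRCm38.p6, 32851 windows). The sterol element was in 1.05% of windows and the E-box in 6.02%. Of the 23 sterol genes with a window, 1 held the sterol element (Hmgcs1) and 5 the E-box (Abca1, Dhcr7, Hsd17b7, Insig1 and Sc5d). The windows of Hmgcs1 (chr13:119690101-119690350, plus strand), Insig1 (chr5:28071162-28071411, plus strand) and the clock gene Ciart (chr3:95882229-95882478, minus strand) are shown 5′ to 3′ with matches in capitals.
Hmgcs1: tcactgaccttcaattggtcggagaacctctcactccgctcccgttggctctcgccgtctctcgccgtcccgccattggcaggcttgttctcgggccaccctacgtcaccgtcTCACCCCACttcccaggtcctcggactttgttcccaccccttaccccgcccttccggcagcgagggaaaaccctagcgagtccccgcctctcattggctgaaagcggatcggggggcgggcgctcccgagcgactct
Insig1: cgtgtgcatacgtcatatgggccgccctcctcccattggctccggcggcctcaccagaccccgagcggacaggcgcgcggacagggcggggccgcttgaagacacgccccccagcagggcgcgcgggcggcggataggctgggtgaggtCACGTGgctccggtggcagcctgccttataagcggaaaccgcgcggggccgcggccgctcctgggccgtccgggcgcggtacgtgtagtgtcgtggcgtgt
Ciart: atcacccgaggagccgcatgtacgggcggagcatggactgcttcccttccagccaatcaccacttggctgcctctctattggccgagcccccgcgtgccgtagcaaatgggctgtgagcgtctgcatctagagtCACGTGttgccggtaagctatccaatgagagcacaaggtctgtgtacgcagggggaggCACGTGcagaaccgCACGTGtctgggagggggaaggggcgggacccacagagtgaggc
The window of Fabp7 held neither. A match describes the letters of the window and is not a measured site.

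No clock gene was called under acute restriction. Of 21 tested, 4 were higher and 1 lower at an unadjusted p below 0.05, with a median of -0.13. Per2, a repressor of the clock, was at 37.7, 38.8 and 34.4 CPM in old ad libitum and 71.7, 89.0 and 80.2 CPM in acute samples (log2 fold change 1.09 ± 0.20, adjusted p = 0.115). The groups were far apart, and Per2 passed in 5 of 27 alternatives (0.0156 to 0.595), among them the number 1 term (0.0201). Ciart, another repressor, had 2.48, 1.02 and 15.3 against 13.4, 10.8 and 12.5 CPM, which overlapped. Its counts were low, at 1 to 45 UMIs per sample. Arntl, the activator, was at 122, 133 and 126 against 66.8, 68.2 and 60.4 CPM (-0.96 ± 0.28, adjusted p = 0.479). The hour of collection was not given in the sources used here.

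The glucocorticoid list (31 tested) had a median of 0.24, with 7 higher and none lower at an unadjusted p below 0.05, and none was called. The median ran from 0.11 without old sample 4 to 0.47 without old sample 1. Fkbp5, a co-chaperone of the glucocorticoid receptor that the reactive list also holds, was at 13.9, 10.2 and 15.3 CPM in old ad libitum and 38.7, 44.1 and 75.01 CPM in acute samples (2.03 ± 0.50, adjusted p = 0.348). Hif3a (0.93 ± 0.31), Per1 (0.86 ± 0.30), Phyhd1 (1.03 ± 0.24) and Sult1a1 (2.14 ± 0.55, 1.02 to 3.82 against 6.33 to 14.6 CPM) lay the same way without passing. Sult1a1 was near the floor, with 1 to 44 UMIs per sample. Etnppl, a phospholipid enzyme and astrocyte marker, had 42.7, 17.4 and 34.4 against 127, 130 and 176 CPM (2.12 ± 0.55, adjusted p = 0.461). Over the 9 libraries numbered 2 to 4, 4 genes of the glucocorticoid list were called higher, Fkbp5 among them (adjusted p = 0.0167, the lowest of its 27 alternatives). In that setting, 24 of 11375 genes (0.211%) were called higher and 8 (0.0703%) lower.

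**Figure D5:**
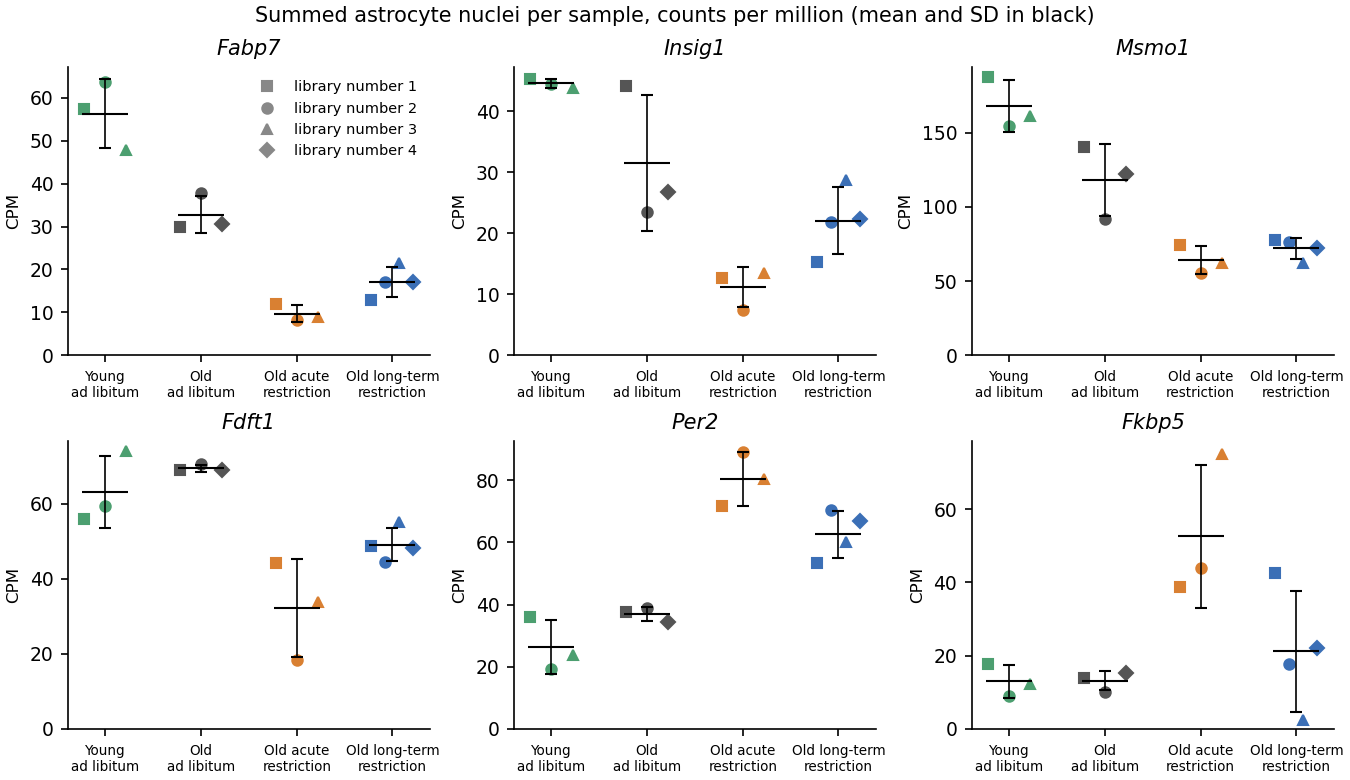
Points are CPM in each of the 13 samples (shape, sample number), with group mean and SD in black. Fabp7, Insig1, Msmo1 and Fdft1 are lower and Per2 and Fkbp5 higher in every acute than in every old ad libitum sample; of these only Fabp7 passed the test.

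Among synapse contact genes, 7 of 39 were lower and none higher at an unadjusted p below 0.05. Ctnna2, an alpha-catenin, was at 1358, 1416 and 1341 CPM in ad libitum and 617, 769 and 972 CPM in acute samples (-0.80 ± 0.15, adjusted p = 0.115, and 0.0201 with the number 1 term), and Gabra2, a GABA-A receptor subunit, at 493, 489 and 608 against 372, 369 and 359 CPM (-0.52 ± 0.11, adjusted p = 0.217). Reactive genes had a median of 0.12, which was -0.12 without acute sample 1, at 0 to 2 decimals without acute sample 3, and 0.26 without acute sample 2. C4b was at 189, 169 and 188 CPM in acute samples, within the old ad libitum range (0.22 ± 0.23), and its sign turned in 4 of 27 alternatives. Chaperones (0.04), fatty acid oxidation (-0.10), glucose and glycogen (-0.11), iron and metal (-0.19), interferon (0.05), synapse contact (-0.08), calcium signalling (-0.06), growth factor (-0.11), glutamate and GABA (-0.23), potassium and water (0.01) and stem cell genes (-0.35) had the medians given. As samples were left out these ran from -0.12 to 0.51 (chaperones), -0.10 to 0.05 (fatty acid), -0.30 to 0.10 (glucose), -0.29 to 0.06 (iron), -0.13 to 0.11 (interferon), -0.12 to -0.02 (synapse contact), -0.10 to 0 (calcium), -0.18 to -0.07 (growth factor), -0.33 to -0.11 (glutamate), -0.13 to 0.09 (potassium) and -0.41 to -0.25 (stem cell). The highest value came without old sample 1 for chaperones, fatty acid, glucose, iron, growth factor and potassium genes, without acute sample 2 for interferon, synapse contact and stem cell genes, and without acute sample 3 for calcium and glutamate genes. The lowest came without acute sample 1, except for iron and stem cell (old sample 4), interferon (old sample 2) and fatty acid genes (long-term sample 2). Interferon genes also turned negative without old sample 1, and chaperones and potassium genes without old sample 2. Apart from Fabp7, which is in the fatty acid and the stem cell lists, no gene of any list was called in the fit over all samples. Against oligodendrocyte precursors, 1 of 12087 genes (0.00827%) differed in its acute response, the non-coding 4930578G10Rik (difference 1.43 ± 0.23, adjusted p = 0.0306); it was named after its values were seen. That count was 0 without acute sample 2, old samples 1 or 2 or long-term sample 1, 4 without young sample 1, 8 without old sample 4 and 21 without acute sample 1.

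Long-term restriction was compared with the same old ad libitum samples. edgeR called 0 of 11707 genes (0%), with 502 at an unadjusted p below 0.05, and DESeq2 called 0 too; over the 9 libraries numbered 2 to 4 edgeR called 25 (5 higher, 20 lower). The comparison shares its ad libitum samples with the acute one, so values for the same genes are given side by side and not as support. The sterol list had a median of -0.56, with 13 lower and none higher at an unadjusted p below 0.05 (2.04% of all genes were lower and 2.25% higher). All 20 synthesis enzymes were again negative, with a median of -0.63, and leaving out each sample kept the list's median between -0.67 and -0.50. The count rested on old sample 1: without it 2 genes were lower at an unadjusted p below 0.05, and over the libraries numbered 2 to 4 the median was -0.39 with 6 of 29 lower. Oligodendrocyte markers, at a median of -0.14, had none at an unadjusted p below 0.05 here; the median was -0.30 without long-term sample 2, -0.27 without long-term sample 3 and 0.08 without old sample 2.

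Fabp7 was at 12.97, 17.1, 21.6 and 17.0 CPM in long-term samples 1 to 4, below all old ad libitum samples (log2 fold change -0.998 ± 0.22, adjusted p = 0.9). Msmo1 was at 77.8, 76.5, 62.4 and 72.0 CPM, likewise below them (-0.70 ± 0.16, adjusted p = 0.9). Insig1, at 15.3, 21.9, 28.8 and 22.2 CPM, overlapped the ad libitum samples (-0.71 ± 0.26), and its fold change shrank to -0.11 over the libraries numbered 2 to 4. Per2 was at 53.3, 70.3, 60.0 and 66.7 CPM, above the ad libitum samples (0.74 ± 0.19, adjusted p = 0.96). Fkbp5 was at 42.6, 17.8, 2.4 and 22.04 CPM, overlapping them. Etnppl was at 160, 42.3, 43.2 and 94.0 CPM (1.44 ± 0.53), of which 42.3 lay just under the highest ad libitum sample.

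For reactive genes the long-term median was -0.24; it was -0.05 without old sample 1 and -0.44 without old sample 2. C4b was at 100, 138, 98.4 and 119 CPM, overlapping old ad libitum (-0.44 ± 0.22, unadjusted p = 0.057 by edgeR) and above every young sample. Gfap was at 133, 128, 98.4 and 107 CPM, below the old ad libitum samples without passing (-0.47 ± 0.23). Aspg was at 15.8, 20.5, 16.8 and 18.7 CPM, also below them (-0.84 ± 0.27). Phka1, a subunit of the kinase that starts glycogen breakdown, had 602 ± 126 CPM in old ad libitum, 840 ± 61 in long-term and 856 ± 35 in acute samples (SD; n = 3, 4 and 3), and Rora, a clock nuclear receptor, 3492 ± 455, 4482 ± 673 and 4457 ± 478 CPM. Neither passed.

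Long-term and acute restriction, which share no ad libitum sample, were set against each other. No gene of 11707 was called by edgeR (0%) or by DESeq2, and 357 (3.05%) had an unadjusted p below 0.05. Over the libraries numbered 2 to 4 edgeR called 175 (25 higher, 150 lower) of 11375 genes. Among them were 5 of 31 glucocorticoid, 3 of 35 calcium signalling and 1 of 16 reactive genes, all lower. In that setting no sterol, clock or chaperone gene was called. Insig1 was higher in each long-term than in each acute sample (0.86 ± 0.29, unadjusted p = 0.00776 by edgeR), and so was Fabp7 (0.75 ± 0.25, unadjusted p = 0.00762 by edgeR). C4b was lower in each long-term sample (-0.66 ± 0.20, unadjusted p = 0.00495 by edgeR). Reactive genes had a median of -0.36 (16 tested, 5 lower, none higher) and sterol genes of 0.19 (31 tested, 2 higher, none lower). These counts, and those of list genes in the rest of this paragraph, are at an unadjusted p below 0.05 by edgeR. The sterol median was 0.02, 0.08 and 0.39 without acute samples 3, 2 and 1, with 1 to 5 genes higher, and the reactive median ran from -0.49 to -0.24; 2 reactive genes were lower without acute sample 1 or long-term sample 4. Oligodendrocyte markers in the members had a median of -1.16, with 4 of 9 lower, or -0.57 with none lower without acute sample 2. With barcodes that carried markers of another type removed, the reactive median was -0.40 and the sterol median 0.21. A p that missed the threshold does not show that the 2 regimens acted alike.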

How the data were processed

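The authors deposited, for each sample, a matrix of UMI counts per gene and barcode. Per the file headers and the submitters' processing notes it was made with Cell Ranger 4.0.0 on mm10; its settings are not given in the sources used here. Raw counts of members were summed per sample. Genes were kept by filterByExpr (11707 of 32285), scaled by TMM and tested with edgeR 4.0.16 (quasi-likelihood, robust) over all 13 samples with group as the term. P-values were adjusted by Benjamini-Hochberg and called below 0.05. CPM values are member counts scaled by the sample's member UMIs in the kept genes, adjusted by TMM. Member UMIs over all genes numbered 257240 to 4879089 per sample. The tests were run on simulated data first. DESeq2 1.42.0 was an alternative. Doublets, scored per sample, were kept and removed in an alternative. Clusters used scanpy 1.11.5 (2000 genes, 20 components, resolution 0.3). Gene positions are from GENCODE M21 and promoters from RefSeq.

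Members and gene lists were chosen with earlier results of these data known. The rule for named genes took, per contrast, up to 12 called genes of smallest p in each direction (without the rule's markers and predicted genes), and from each list the called members and the 2 of highest CPM. Other named genes were chosen after their values were seen, and a few genes are not reported here. In each of the 15 pairs of samples within groups, counts differed by more than sampling noise (chi-square per degree of freedom 1.73 to 7.5), so no library was counted as a duplicate. Sample numbers as a whole did not pair the samples: deviations of same-numbered samples from their group means correlated by 0.119 to 0.544 for number 1, 0.00532 to 0.224 for number 2 and -0.177 to 0.287 for number 3.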

Additional observations from a re-analysis of the deposited data

Results flagged for a closer look

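In the group of 4 long-term samples, 7 of 49 sets of gene values held a sample set apart from the other three, by Dixon's criterion for 4 values. Chance flags about 1 in 20 such sets. The 49 sets come from the same 4 samples and are not independent, so their count is no test of an excess. Long-term sample 3 was apart for C1qtnf4 (19.2 CPM), Ggta1 (48.0 CPM) and Kcnq1ot1 (331 CPM). Sample 1 was apart for Fgf12 (394 CPM), Hmgcs1 (29.2 CPM) and Hspa8 (107 CPM), and sample 4 for Gabra2 (427 CPM). Sample 3 had 117 member nuclei, the fewest of its group.

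The ageing log2 fold change differed between astrocytes and granule neurons, by the test of the difference in edgeR, for 12 genes, of which 1 is not reported here. It was higher in astrocytes for C130073E24Rik (difference 2.86), 4930555F03Rik (2.38), Robo1 (1.44), Eps8 (1.14), Nhsl1 (0.94), Khdrbs3 (0.91), Gpam (0.87), Arhgef4 (0.73) and Il1rapl1 (0.65). It was lower in astrocytes for Camk2d (-1.30) and Pde3a (-3.07). Against oligodendrocyte precursors, Etl4 differed with age (1.84) and 4930578G10Rik under acute restriction (1.43).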

How the results depend on the processing

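With 3 or 4 samples per group and as few as 73 members in one of them, counts of calls moved widely. The 20 ageing calls became 110 with DESeq2, 78 without a filter on low counts, 166 with the term for number 1, 7 with median UMIs as a covariate, 11 with both terms, 1 with only the 2 groups in the fit, 8 with membership after thinning, 2 without the length trend, 464 over libraries numbered 2 to 4, and 9 to 160 as each sample was left out. With the replicate number as a block, there were 103 ageing and 7 acute calls; the numbers as a whole did not pair the samples. The 1 acute call became 14 with DESeq2, 15 without a filter, 11 with the term for number 1, 32 over libraries numbered 2 to 4 and 0 to 3 as each sample was left out. It became 0 with median UMIs as a covariate (alone or with the term for number 1), with only the 2 groups, with a threshold of 30 per 10000, after thinning and without the length trend. Long-term restriction went from 0 to 25 calls over libraries numbered 2 to 4, and long-term against acute from 0 to 175 there and to 1 without a filter. The differences between cell types numbered 7 (granule, ageing) and 5 (precursors, ageing) without mixed barcodes; as samples were left out they numbered 3 to 20, 0 to 5 and 0 to 21 (precursors, acute).

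The direction turned for C4b, acute against old (0.22), with median UMIs as a covariate (-0.12), with that and the term for number 1 (-0.0602), over libraries numbered 2 to 4 (-0.15) and without old sample 1; it ran from -0.131 to 0.465 as each sample was left out. The difference in log2 odds of the astrocyte share, ageing, turned after thinning (0.371) and without old samples 2 or 4 (range -1.6 to 0.744 as each sample was left out). It turned for acute without old samples 2 or 4 (-0.769 to 1.57), for long-term without old sample 4 (-0.371 to 1.97), and for long-term against acute without long-term sample 4 (-0.12 to 0.862). The restriction to libraries numbered 2 to 4 and the pair of terms were chosen after seeing the data. The causes were not tested.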
